A study of Mus musculus with 6 samples.

Results

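The genes described here encode the enzymes and carriers that take glucose to pyruvate and pyruvate through the tricarboxylic acid (TCA) cycle, as measured in splenic CD4+ CD25+ T cells with and without Keap1. The 39 genes were given by name, with no measured value used to choose them: 16 of glycolysis, 11 of the fate and mitochondrial entry of pyruvate, and 12 of the TCA cycle. A gene was tested when a transcript cluster of the array carried its symbol alone and read at or above the median of the array on at least 3 of 6 arrays. By this rule 36 of the 39 were tested, among 16825 genes in all: 14 of glycolysis, 10 of pyruvate entry and 12 of the TCA cycle. Gpi1, Eno1 and Mpc2 are not among the genes named in the annotation used here and have no value. No named member fell below the intensity limit, so no member entered the comparison only through the group in which it was bright.

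Glycolysis splits glucose into pyruvate in the cytosol and yields a little ATP and NADH. Pyruvate is either reduced to lactate and exported, or carried into mitochondria, where the pyruvate dehydrogenase complex turns it into acetyl-CoA for the TCA cycle. Activated effector T cells are known for high glycolysis with lactate release, whereas regulatory T cells (Treg cells), the cells that restrain immune responses, are known to rely more on mitochondrial oxidation. KEAP1 is the adaptor that hands the transcription factor NRF2 to the ubiquitin system, and NRF2 is best known in metabolism for enzymes of the pentose phosphate pathway and NADPH supply.

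The Keap1_KO group held 3 arrays (replicates B, C and D) of cells from VAVcreKeapfl/fl mice, labelled Keap1 -/-, in which Cre driven by the Vav promoter deletes floxed Keap1 in blood-forming cells at large and not in T cells alone. The WT group held 3 arrays (replicates A, D and F) from mice labelled Keap1 +/+, and the labels do not say whether these carried Cre. All mice are given as untreated male C57BL/6, and their age as 10 to 12 months in the characteristics but 6 to 10 weeks in the growth protocol. CD4+ CD25+ cells were taken from the spleen with magnetic beads, so other spleen cells can be carried along. The design text speaks of independent triplicates without saying that each array is a mouse of its own, so p-values reflect only how far these arrays spread, some of which may be technical. All values are the deposited log2 expression values, and a difference is the Keap1_KO mean minus the WT mean on that scale with its standard error (SE) from limma.

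The arrays were first checked against their labels. The targeted gene was lower on every Keap1_KO array, with Keap1 at 4.87, 4.89 and 4.70 there (replicates in letter order, here and below) and at 5.30, 5.41 and 5.77 in WT. These readings are dim, below the intensity limit used for testing, and whether the probes lie in the deleted part was not analysed here. Nqo1, a quinone reductase induced by NRF2, gave 8.50, 7.55 and 9.14 in Keap1_KO and at most 5.03 in WT. Treg markers were present. The 2 brightest, whose genotype means were close, were Il2ra (CD25) at 14.18, 13.78 and 13.83 in WT and 13.85, 14.19 and 13.60 in Keap1_KO, and Ikzf2 (Helios) between 14.92 and 15.56 on all arrays. Over the 12 Treg genes tested, 8 had higher means in Keap1_KO (66.7%, against 56.5% of all genes). Their median difference was 0.62, from -0.22 (Gpr83) to 2.40 (Itgae), both named after their values were seen. The mean deviation of the 12 from the average of 6 arrays was -0.50, -0.28 and -0.57 in WT and -0.09, 0.71 and 0.72 in Keap1_KO, highest on replicates C and D like the metabolic genes described next. Foxp3 has no cluster of its own here. Neutrophil markers were present on all arrays and highest on Keap1_KO D.

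No gene passed the adjusted threshold in this comparison. By limma with Benjamini-Hochberg adjustment, 0 of 16825 genes had adjusted p under 0.05 (0%), while 1410 were higher and 323 lower in Keap1_KO at an unadjusted p under 0.05, which is 8.38% and 1.92%. None of the 36 genes of glycolysis, pyruvate entry and the TCA cycle passed, and their smallest adjusted p was 0.476. In the same fit, 6 of the 36 had an unadjusted p under 0.05 with a higher mean in Keap1_KO (16.7% of them) and Pdk1 had one with a lower mean. The values below are therefore levels and differences that did not pass the test over all genes.

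As a group the 36 genes lay higher in Keap1_KO. A higher mean was found for 32 of 36 (88.9%; 29 to 35 under the rescalings tried), against 9501 of 16825 genes (56.5%) and 59.6% of protein-coding genes, and the median difference was 0.44 against 0.06 for all genes and 0.08 for all 10994 protein-coding genes. By pathway the median difference was 0.51 for glycolysis, with 13 of 14 higher (Slc2a3 and Pfkp changed sign with the scaling), 0.30 for pyruvate entry, with 7 of 10 higher, and 0.65 for the TCA cycle, with 12 of 12 higher, of which Idh3a turned lower under both rescalings over the genes tested. Rescaling moves all genes together: centring each array on its median over all clusters put the median of all genes at 0.17, and centring over the genes tested put it at -0.11. Relative to the median of all genes, the list medians were 0.45 for glycolysis, 0.24 for pyruvate entry and 0.59 for the TCA cycle, which centring cannot change. Quantile normalization over the genes tested, which can, gave 0.40, 0.17 and 0.45. Keap1_KO C and D had the lowest array medians over all clusters (5.25 and 5.16) but the highest over the genes tested (7.54 and 7.64). Genes of matched brightness were not compared. Some lists outside these pathways also lay higher. The median difference was 0.83 for CD4 T cell identity genes (11 of 11 higher) and 0.62 for Treg genes (8 of 12 higher). It was -0.051 for dendritic cell markers and -0.044 for erythroid markers. The higher level was thus not particular to the metabolic genes. No test of a list was made.

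**Figure D1:**
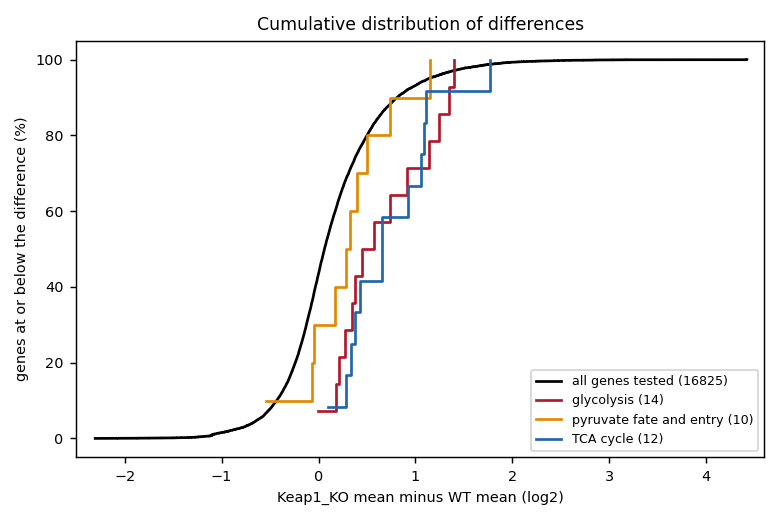
The horizontal axis is the difference between genotypes (Keap1_KO mean minus WT mean, log2) and the vertical axis the percentage of genes at or below it, for all 16825 genes tested and for the 14, 10 and 12 tested genes of glycolysis, pyruvate entry and the TCA cycle. The TCA cycle and glycolysis curves lie to the right of the curve of all genes, with medians of 0.65 and 0.51 against 0.06, and the pyruvate curve has a lower end at -0.54 (Pdk1).

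The higher means came from 2 of the 3 Keap1_KO arrays. On Keap1_KO C and D together, 27 of the 36 genes lay above all 3 WT arrays, as did 31.4% of all genes. On Keap1_KO B, 27 of the 36 lay inside the WT range, 3 below it and 6 above it, and this was not counted over all genes. The mean deviation from the average of 6 arrays over the glycolysis genes was -0.38, -0.04 and -0.57 in WT, against -0.13, 0.47 and 0.64 in Keap1_KO. For the TCA cycle it was -0.32, -0.01 and -0.76 in WT and -0.28, 0.60 and 0.78 in Keap1_KO. Replicate B thus sat with the WT arrays for these pathways, although its Nqo1 and Keap1 values were those of its genotype, and its NRF2 target genes (15 tested) deviated by 0.27 against -0.75, -0.33 and -0.88 in WT. It also lay among WT on the first principal component, the main axis of variation over all genes tested. That component was -37.1, 4.5 and -70.0 in WT and -30.0, 60.5 and 72.1 in Keap1_KO. Replicate B was the lowest Keap1_KO array for 30 of the 36 members, and for 46.9% of all genes.

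With all arrays, 5 of the 36 genes had every Keap1_KO array above every WT array (13.9%), against 9.11% of all genes and 10.8% of protein-coding genes. These were Hk1, Aldoa, Aldoc, Gapdh and Dlat, and Pdk1 alone had every Keap1_KO array below every WT array, as did 4.96% of all genes. After quantile normalization was repeated over all clusters, the count was 3 and Pdk1 overlapped. Without Keap1_KO B, 27 of 36 lay wholly above WT (75%) against 31.4% of all genes, and 6 passed the adjusted threshold, Aldoa, Tpi1, Gapdh, Pkm, Ldhb and Mdh2, where 3.22% of all genes passed with a higher mean. Leaving out each array in turn was planned, but the weight given here to this array came after its values were seen. The medians without Keap1_KO B were 0.67 for glycolysis, 0.42 for pyruvate entry and 0.92 for the TCA cycle. The count of 5 was 8 without WT A and 16 without WT D, against 12.4% and 23.7% of all genes. With array weights estimated by limma, 9 of the 36 passed, the same 6 with Cs, Idh3b and Mdh1, and 9.58% of all genes passed with a higher mean. Keap1_KO B had the lowest weight (0.35) and WT A the highest (3.38), against 0.76 for WT D and 0.51 for WT F. The weighted fit thus played down Keap1_KO B and rested mostly on WT A for its group. It is not independent of the fit without Keap1_KO B.

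**Figure D2:**
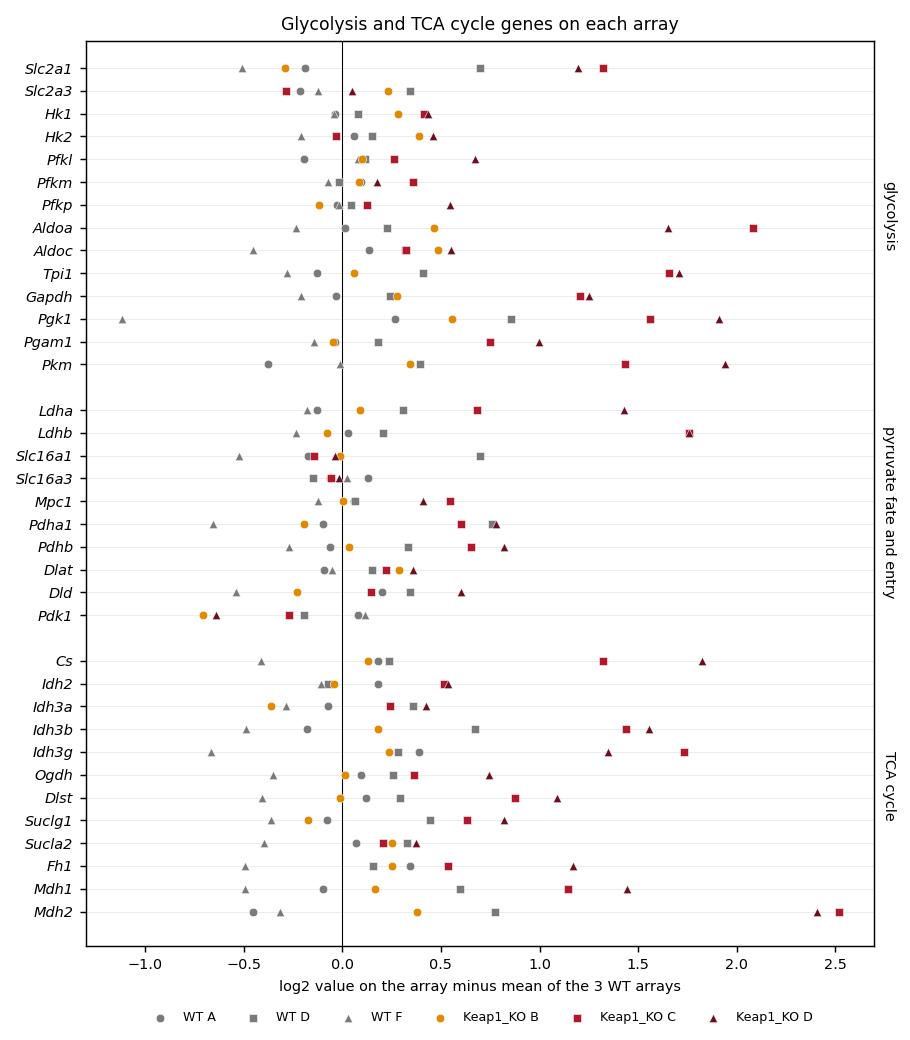
Each row is a gene, the horizontal axis is the log2 value on an array minus the mean of the 3 WT arrays, and each point is 1 array (grey for WT, orange for Keap1_KO B, red and dark red for Keap1_KO C and D). Keap1_KO C and D stand to the right of all WT points for 27 of 36 genes (31.4% of all genes tested), while Keap1_KO B lies among the WT points for 27.

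Markers of other cells also varied between the arrays. Of 15 neutrophil markers 13 were tested and 12 had higher means in Keap1_KO, where 56.5% of all genes did. The log2 of their summed level lay between 14.46 and 17.58 in WT and between 15.43 and 19.99 in Keap1_KO. Mmp9 and Cebpe, the other 2, were below the intensity limit. The mean deviation of the 13 was -1.26, -0.07 and -0.97 in WT and -1.13, 0.64 and 2.77 in Keap1_KO. With that deviation as a covariate the median differences were 0.26 for glycolysis, 0.070 for pyruvate entry and 0.27 for the TCA cycle, against 0.025 for all genes. Pan-T cell genes varied with the same arrays too: on the deposited scale all 11 tested of 14 CD4 T cell identity genes were higher in Keap1_KO. Their mean deviation was -0.46, -0.08 and -0.54 in WT and -0.27, 0.68 and 0.68 in Keap1_KO, with a median difference of 0.83. Genes of dividing cells (16 tested, 15 higher) deviated by 0.26, 0.19 and 0.29, with replicate B as high as the others. Both CD8 T cell markers, Cd8a and Cd8b1, had higher means in Keap1_KO, and their mean deviation was -0.42, 0.37 and -1.07 in WT and -0.74, 0.90 and 0.96 in Keap1_KO. Plasma cell markers (7 tested, 6 higher) deviated by -0.43, 0.20 and -0.59 in WT and -0.64, 0.27 and 1.19 in Keap1_KO, and T cell activation genes (14 tested, 10 higher) by -0.26, 0.00 and -0.52 and by -0.11, 0.41 and 0.48. B cell markers (10 tested, 8 higher) deviated by -0.26, 0.68 and -0.94 in WT and 0.23, -0.50 and 0.78 in Keap1_KO, and the log2 of their summed level, which Ighm sets almost alone, was 17.54 to 17.91 over the arrays. The log2 of the summed level of NK cell markers was 10.58 to 13.12 in WT and 12.05 to 14.02 in Keap1_KO, and that of macrophage and monocyte markers 11.49 to 12.80 and 12.47 to 15.27. The brightest genes weigh most in these sums, such as Lyz2 at 15.13 on Keap1_KO D. Gene by gene, NK markers (9 tested, 7 higher) had a median difference of 0.32, from -0.28 to 2.10. Macrophage and monocyte markers (7 tested, 6 higher) had 0.14, from -0.0056 to 2.86. The part of these cells and genes in the metabolic differences was not tested, and in bulk RNA fewer cells of a type and less RNA per cell cannot be told apart.

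**Figure D3:**
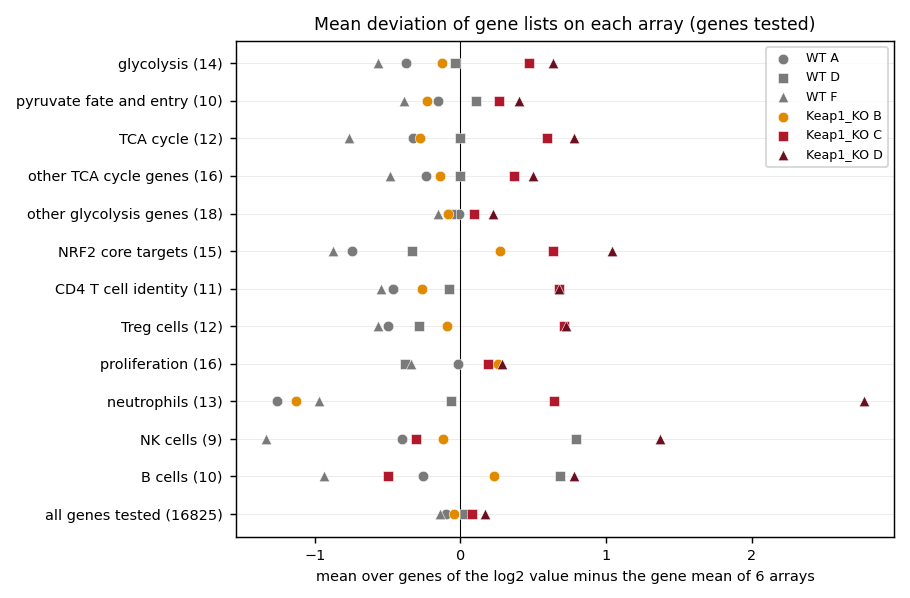
Each row is a gene list with the number of its genes tested, and each point is an array (grey for WT, orange and reds for Keap1_KO) at the mean over the genes of the log2 value minus the gene's mean over 6 arrays. Keap1_KO B lies with WT for glycolysis (-0.13), the TCA cycle (-0.28) and CD4 T cell identity (-0.27) but above all WT arrays for NRF2 core targets (0.27) and proliferation (0.26).

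Within glycolysis the 7 genes of glucose carriers, hexokinases and phosphofructokinases had a median difference of 0.27, from -0.0023 (Slc2a3) to 0.74 (Slc2a1), and the 7 from aldolase to pyruvate kinase had 1.14, from 0.45 (Aldoc) to 1.40 (Aldoa). The ranges overlapped. This division follows the order of the reactions and was made after the values were seen, and the 2 medians were not tested against each other.

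Slc2a1 encodes GLUT1, the main glucose carrier of activated T cells. It read 8.27, 9.16 and 7.95 in WT and 8.17, 9.79 and 9.66 in Keap1_KO. Keap1_KO B was thus lower than WT A, and the difference of 0.74 (SE 0.52) had an adjusted p of 0.545 in limma. Slc2a3, which encodes the high-affinity carrier GLUT3, differed by -0.0023 (SE 0.23), with a 95% interval from -0.56 to 0.55 and a sign that turned under both scalings over all clusters.

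Hexokinase traps glucose in the cell as glucose 6-phosphate. Hk1, the widely expressed form, read 7.09, 7.21 and 7.09 in WT and 7.41, 7.55 and 7.56 in Keap1_KO, so the groups did not overlap and each was tight. The difference was 0.38 (SE 0.15, 1.30-fold), with an adjusted p of 0.476 in limma. The exact permutation test, two-sided, gave p = 0.1, which is as low as 6 arrays in equal groups can reach. Hk1 was 1 of 6 members in which Keap1_KO B lay above all WT arrays. Hk2, the inducible form, was dim at 5.74, 5.83 and 5.47 in WT and 6.07, 5.65 and 6.14 in Keap1_KO, and the arrays overlapped (difference 0.27, SE 0.20). The phosphofructokinase genes Pfkl, Pfkm and Pfkp, which encode the liver, muscle and platelet forms of the committing enzyme, differed by 0.34, 0.21 and 0.18 with overlapping arrays.

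Aldolase cleaves fructose 1,6-bisphosphate into the triose phosphates. Aldoa read 6.94, 7.16 and 6.70 in WT and 7.40, 9.01 and 8.58 in Keap1_KO, without overlap, and gave the largest difference of the glycolysis genes at 1.40 (SE 0.42, 2.64-fold, exact permutation p = 0.1, limma adjusted p = 0.476). Replicate B lay only just above WT D, and C and D lay far above it. Aldoc, the other form tested and named after its values were seen, was dimmer and also did not overlap (5.95 ± 0.40 and 6.41 ± 0.12, difference 0.45). The triose phosphate isomerase gene Tpi1 read 6.31, 6.84 and 6.15 against 6.49, 8.09 and 8.14, with replicate B below WT D (difference 1.14, SE 0.48).

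To set these genes beside sequences that factors are known to recognise, the 250 bases before each RefSeq start (GRCm38.p6) were searched on both strands for the antioxidant response element core bound by NRF2 (TGACNNNGC), the hypoxia response element core (ACGTG), the E-box of MYC and its relatives (CACGTG, which contains ACGTG), the cyclic AMP response element (TGACGTCA) and the palindrome printed in capitals in the Mdh2 window. The last 2 were added after the Mdh2 window was read. The table holds windows for 37 of the 39 genes, 55 in all because some genes have several starts whose windows overlap. The NRF2 core was found in 7 of 55 windows (12.7%), against 10.2% of all 32851 windows of this length. The hypoxia core was found in 21 of 55 (38.2%) against 16.6%, and the E-box in 6 (10.9%) against 6.02%. Of the 21 windows with the hypoxia core, 6 belong to Ogdh. A match is a stretch of letters and not a measured binding site.

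Where a gene has several listed starts, the one with the most matches is shown, here and below, or the first if none has any. Aldoa is shown as the member with the largest difference in glycolysis, at the second of its 3 listed starts (chr7:126799255-126799504, minus strand). Its 2 matches are in capitals, the NRF2 core and then the hypoxia core, both read on the opposite strand. No other Aldoa window holds the NRF2 core.
Aldoa: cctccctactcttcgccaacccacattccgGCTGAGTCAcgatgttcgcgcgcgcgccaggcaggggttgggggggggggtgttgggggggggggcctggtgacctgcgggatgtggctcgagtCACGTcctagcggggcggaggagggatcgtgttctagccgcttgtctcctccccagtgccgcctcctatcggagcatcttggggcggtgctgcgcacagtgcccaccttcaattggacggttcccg

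In the 4 genes after the triose phosphates, Keap1_KO C and D were the highest arrays, and D was above C. Gapdh, the dehydrogenase that makes NADH, read 10.83, 11.11 and 10.66 in WT and 11.14, 12.07 and 12.11 in Keap1_KO, without overlap, although replicate B exceeded WT D by only a small step. The difference was 0.91 (SE 0.31, 1.88-fold, exact permutation p = 0.1, limma adjusted p = 0.476). Another cluster, which Gapdh shares with the predicted gene Gm7336, differed by 0.72. It was far brighter, with means of 16.5 in WT and 17.2 in Keap1_KO, above the log2 limit of 16 for a 16-bit scanner.

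Pgk1, which makes the first ATP of the pathway, read 11.59, 12.18 and 10.20 in WT and 11.88, 12.88 and 13.23 in Keap1_KO (difference 1.34, SE 0.58), with a wide WT spread set by the low WT F. That cluster carries Pgk1 as its only symbol, but its identifier has the prefix 12 while RefSeq places Pgk1 on chromosome X. The cluster with the prefix X read 10.86, 11.47 and 10.04 against 11.14, 12.18 and 12.42, a difference of 1.13, in the same order of arrays. Pgam1, phosphoglycerate mutase, differed by 0.57 (SE 0.30) on its own cluster and by 1.47 and 0.76 on clusters shared with Gm8910 and Pgam1-ps2. Many glycolysis genes have processed copies in the genome, and probes may not separate Gapdh, Pgk1 or Pgam1 transcripts from them.

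Pyruvate kinase closes the pathway. Pkm read 8.43, 9.20 and 8.79 in WT and 9.15, 10.24 and 10.75 in Keap1_KO, where replicate B lay just below WT D. The difference was 1.24 (SE 0.44, 2.36-fold), and it was 1.69 without replicate B, where the limma adjusted p was 0.049. The clusters do not tell the M1 and M2 splice forms of this gene apart.

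**Figure D4:**
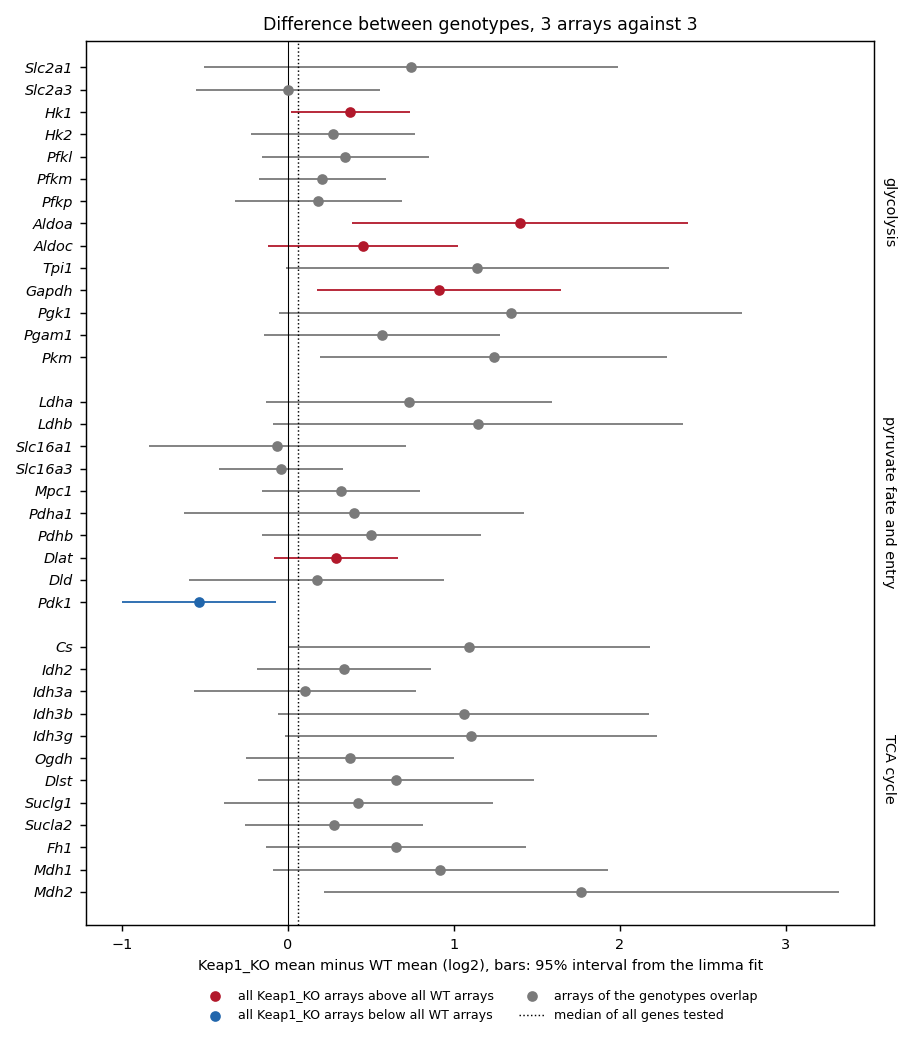
Each row is a gene, the horizontal axis is the Keap1_KO mean minus the WT mean (log2) with its 95% interval from the limma fit over 3 arrays against 3, colours show whether the arrays of the genotypes overlap, and the dotted line is the median of all genes tested (0.06). Differences above 1 are those of Aldoa, Tpi1, Pgk1 and Pkm in glycolysis, Ldhb, and Cs, Idh3b, Idh3g and Mdh2 in the TCA cycle, and Pdk1 is the only gene with all Keap1_KO arrays below WT.

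At the branch from pyruvate the lactate dehydrogenases were higher on Keap1_KO C and D and the lactate carriers were not. Ldha, whose product favours lactate formation, read 8.65, 9.09 and 8.60 in WT and 8.87, 9.46 and 10.21 in Keap1_KO (difference 0.73, SE 0.36). Ldhb, whose product favours the return of lactate to pyruvate, read 8.47, 8.65 and 8.21 in WT and 8.37, 10.21 and 10.20 in Keap1_KO. Replicates C and D thus read nearly the same for Ldhb, above every WT array, and replicate B lay between WT F and WT A. Its difference was 1.15 (SE 0.51, 2.21-fold, limma adjusted p = 0.477) and 1.76 without replicate B (adjusted p = 0.034).

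The promoters of the 2 lactate dehydrogenase genes are shown because the genes encode subunits of the same enzyme and the windows printed here differ. The Ldha window (chr7:46845554-46845803, plus strand, the first of 2 starts) holds 5 matches of the hypoxia core, counting both strands, of which 4 lie in its 2 E-boxes, and 1 cyclic AMP response element, all in capitals. The Ldhb window (chr6:142507958-142508207, minus strand) holds none of the motifs searched, and neither does the window of the other Ldha start.
Ldha: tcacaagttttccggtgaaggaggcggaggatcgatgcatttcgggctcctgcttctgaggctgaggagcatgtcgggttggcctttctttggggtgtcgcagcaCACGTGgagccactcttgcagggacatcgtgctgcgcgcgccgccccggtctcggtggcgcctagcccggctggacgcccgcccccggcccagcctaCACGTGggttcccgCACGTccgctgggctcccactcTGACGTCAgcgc
Ldhb: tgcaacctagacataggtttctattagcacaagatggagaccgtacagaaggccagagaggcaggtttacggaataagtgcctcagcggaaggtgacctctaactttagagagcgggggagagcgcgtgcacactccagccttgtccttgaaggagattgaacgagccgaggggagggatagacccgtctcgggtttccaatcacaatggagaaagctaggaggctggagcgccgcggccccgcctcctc

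Slc16a1 and Slc16a3 encode the lactate carriers MCT1 and MCT4. Slc16a1 read 7.32, 8.19 and 6.97 in WT and 7.48, 7.34 and 7.45 in Keap1_KO, so that the Keap1_KO arrays lay close together inside a wide WT range. Slc16a3 was dim, at 5.82, 5.55 and 5.72 against 5.64, 5.64 and 5.68. Their differences of -0.066 (95% interval -0.84 to 0.71) and -0.044 (-0.42 to 0.33) turned positive under both scalings over all clusters. Bsg, the chaperone that brings these carriers to the membrane and one of 12 tested of 18 further pyruvate genes, read 10.43, 11.06 and 10.15 against 10.78, 12.44 and 12.34 (difference 1.31, SE 0.50, limma adjusted p = 0.476).

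Entry into mitochondria showed small differences. Mpc1, a subunit of the mitochondrial pyruvate carrier, differed by 0.32 (SE 0.20) with overlapping arrays. The pyruvate dehydrogenase genes Pdha1 and Pdhb (the E1 subunits), Dlat (E2) and Dld (E3) differed by 0.40, 0.50, 0.29 and 0.17. Only Dlat had all Keap1_KO arrays above WT, at 7.62, 7.55 and 7.69 against 7.24, 7.48 and 7.28, and there replicate B was level with C and D. The sign for Dld turned under quantile normalization over the genes tested.

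Pdk1 was the only member to differ downwards without overlap. It encodes a kinase that switches pyruvate dehydrogenase off and so holds pyruvate back from conversion to acetyl-CoA. The values were 8.90, 8.63 and 8.94 in WT and 8.12, 8.56 and 8.19 in Keap1_KO, so replicate B was the lowest array and replicate C came within a small step of WT D. The difference was -0.54 (SE 0.19, 1.45-fold lower, 95% interval -1.0 to -0.075), with an exact permutation p of 0.1 and a limma adjusted p of 0.476. It was negative in all 17 alternative settings, from -0.76 to -0.43, although the arrays overlapped after quantile normalization over all clusters was repeated. The other kinases lay the other way, with 0.65 for Pdk2 and 0.56 for Pdk3, on arrays that overlapped. Of the phosphatase genes that undo the kinases' work, Pdp1 differed by -0.078 and Pdp2 by -0.19.

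The Pdk1 promoter is shown as that of the only member lower on all Keap1_KO arrays. Its window at the first of 2 starts (chr2:71872974-71873223, plus strand) holds none of the motifs searched and so has no capitals.
Pdk1: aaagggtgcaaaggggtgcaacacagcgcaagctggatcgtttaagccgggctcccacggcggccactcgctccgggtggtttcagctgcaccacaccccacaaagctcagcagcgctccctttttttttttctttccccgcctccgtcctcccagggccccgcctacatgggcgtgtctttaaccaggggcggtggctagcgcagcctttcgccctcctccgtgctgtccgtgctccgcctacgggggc

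All 12 TCA cycle genes had higher means in Keap1_KO, although Idh3a turned lower under both rescalings over the genes tested, and Mdh2 differed most. None of the 12 had all Keap1_KO arrays above all WT arrays, because replicate B was below the highest WT array in each. Mdh2, the mitochondrial enzyme that closes the cycle by making oxaloacetate, read 10.15, 11.38 and 10.29 in WT and 10.99, 13.12 and 13.01 in Keap1_KO. This was the largest difference of all members, 1.77 (SE 0.64, 3.40-fold, 95% interval 0.22 to 3.32), with a limma adjusted p of 0.476. Without replicate B it was 2.46, with an adjusted p of 0.046. Mdh1, the cytosolic form, read 9.52, 10.22 and 9.13 against 9.79, 10.77 and 11.07 (difference 0.92, SE 0.42).

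The Mdh2 promoter (chr5:135778399-135778648, plus strand) is shown for the member with the largest difference. Its window holds 1 cyclic AMP response element and 3 copies of a palindrome that starts with TCTCG, in capitals, and neither the NRF2 core nor the hypoxia core. The palindrome is found in 0.39% of all windows and in no other window of the 37 genes that have one.
Mdh2: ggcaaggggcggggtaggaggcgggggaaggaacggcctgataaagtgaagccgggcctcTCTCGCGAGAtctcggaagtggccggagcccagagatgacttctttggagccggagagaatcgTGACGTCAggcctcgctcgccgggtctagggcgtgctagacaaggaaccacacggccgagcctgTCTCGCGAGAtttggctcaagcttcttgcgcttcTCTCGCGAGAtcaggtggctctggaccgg

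Citrate synthase starts the cycle by joining acetyl-CoA and oxaloacetate. Its gene Cs read 11.66, 11.71 and 11.06 in WT and 11.61, 12.80 and 13.30 in Keap1_KO, a difference of 1.09 (SE 0.45) with replicate B inside the WT range. The NAD-dependent isocitrate dehydrogenase is built from a catalytic subunit, Idh3a, and 2 others, Idh3b and Idh3g, and their differences were unequal. Idh3b read 10.22, 11.08 and 9.91 against 10.59, 11.84 and 11.96 (difference 1.06, SE 0.46). Idh3g read 10.73, 10.63 and 9.68 against 10.58, 12.08 and 11.69 (difference 1.10, SE 0.47). Idh3a differed by only 0.10 (SE 0.28, 95% interval -0.57 to 0.77), with replicate B the lowest of all 6 arrays, and its sign turned under both scalings over the genes tested. The differences between the subunits were not tested.

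Idh2, the mitochondrial NADP-dependent isocitrate dehydrogenase, read 6.64, 6.39 and 6.36 in WT and 6.42, 6.98 and 7.0 in Keap1_KO (difference 0.34, SE 0.22). Idh1, its cytosolic counterpart and known as an NRF2-responsive source of NADPH, differed by 0.17 (SE 0.26). Ogdh, the first subunit of the oxoglutarate dehydrogenase complex, read 9.66, 9.82 and 9.21 against 9.58, 9.93 and 10.31 (difference 0.37, SE 0.26), and its partner Dlst differed by 0.65. The succinyl-CoA synthetase genes Suclg1 and Sucla2 differed by 0.42 and 0.28, and Fh1, fumarase, by 0.65. The arrays overlapped for each of these.

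Of the wider lists, genes other than the 3 with the largest difference in each were named after their values were seen. The other genes of these pathways gave smaller differences in glycolysis and similar ones in the TCA cycle. None of them passed the adjusted threshold in limma. Of 26 further glycolysis genes 18 were tested and 12 had higher means (66.7%, against 56.5% of all genes). Their median difference was 0.15, led by Minpp1 (0.62), Eno3 (0.60) and G6pc3 (0.59). G6pc3, a glucose 6-phosphatase that works against hexokinase, had all Keap1_KO arrays above WT (7.27, 7.41 and 6.88 against 7.52, 7.71 and 8.11), as did the phosphatase Pgp and the glycogen synthase Gys1. These 3 are 16.7% of the 18, against 9.11% of all genes. Pfkfb3, which makes the main activator of phosphofructokinase, differed by -0.21 (SE 0.25). Of 18 further pyruvate genes 12 were tested, 6 were higher (50%) and the median was 0.057. Of 22 further TCA cycle and linked genes 16 were tested, 12 were higher (75%) and the median was 0.47.

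Regulators of the pathway were measured as well. Hif1a, the oxygen-regulated factor that raises glycolysis genes, differed by 0.011 (SE 0.35, 12.97, 13.85 and 13.12 in WT against 13.09, 12.96 and 13.93). Myc, the other main activator of glycolysis genes in T cells, read 10.73, 11.32 and 9.83 against 10.62, 11.46 and 11.67 (difference 0.63, SE 0.45), with replicate B below WT A. The prolyl hydroxylase gene Egln3, itself a HIF target that marks HIF for degradation, had all Keap1_KO arrays above WT (8.32, 7.44 and 7.57 against 8.43, 8.59 and 8.56, difference 0.75). Of 22 regulators 17 were tested, 12 were higher (70.6%, against 56.5% of all genes) and the median was 0.21. For 2 of the 17, Egln3 among them, all Keap1_KO arrays lay above WT (11.8%, against 9.11% of all genes). Of 16 HIF targets outside glycolysis 13 were tested, 12 were higher (92.3%) and the median was 0.42. Fam162a was at 1.03 and Ndrg1 at 0.78. The HIF target Vegfa differed by 0.027 but was dim, at 5.28 to 5.65 on all arrays, near the array medians. None of the regulators or HIF targets passed the adjusted threshold in limma.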

How the data were processed

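RNA of 6 Affymetrix arrays, 3 per genotype, was described by log2 expression values per transcript cluster, which the authors had normalized by RMA in Affymetrix Expression Console, per the submitters' processing notes (tool versions and genome build are not given in the sources used here). The deposited log2 table held 65528 clusters with values from 1.88 to 19.93 and array medians from 5.16 to 5.43. In 1268 clusters at least 1 array exceeded 16, the limit of a 16-bit scanner on a log2 scale, and how such values arose is not stated in the sources used here. Gene names came from GEO's platform annotation: 30354 clusters had 1 symbol, 2118 several and 33056 are unnamed here, and 824 names were updated through RefSeq. That annotation belongs to another Affymetrix mouse array than the one the series text names, but all of its 32472 rows were found among the values.

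Clusters with 1 symbol that read at or above the array median on at least 3 arrays were kept, and the brightest cluster stood for a gene. Genotypes were compared with limma 3.58.1 in R 4.3.3 (lmFit, eBayes, Benjamini-Hochberg over 16825 genes, threshold 0.05), which was tested on simulated data, and with an exact two-sided permutation test. Depth does not apply to arrays, and their number limits the precision. The members were given by name, with no measured value entering their choice. They, the lists and the tests were nonetheless set with earlier results of these data known. Values on every array are given for the 12 tested members with the largest absolute difference, for a fixed set of others, and for up to 3 genes of each wider list. Alternatives covered the filter, scaling, cluster choice, weights, variance trend, each array left out, and neutrophil signal as a covariate.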

Additional observations from a re-analysis of the deposited data

How the results depend on the processing

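The medians of glycolysis, pyruvate entry and the TCA cycle stayed positive when any array was left out, with ranges of 0.38 to 0.67, 0.16 to 0.42 and 0.41 to 0.92. With the first principal component as a covariate they were 0.18, -0.013 and 0.053, and 24 of 36 members had higher means instead of 32. Genes past the adjusted threshold in limma numbered 0 with all arrays, 1880 with array weights, 1 with a variance trend and robust fit, and 0 to 569 with an array left out. Members past it numbered 0, and 9 with array weights and 0 to 6 with an array left out, the 569 and the 6 both without Keap1_KO B. Members with all Keap1_KO arrays above WT numbered 5, and 3 after repeated quantile normalization, 3 after centring over the genes tested, and 5 to 27 with an array left out. The cause of these changes was not tested. The first principal component as a covariate and both rescalings over the genes tested were chosen after seeing the data.

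Over 17 alternatives, 24 members kept their sign in each and 12 changed it at least once. With an array left out, the range was -0.098 to 0.37 for Dld, -0.060 to 0.33 for Idh3a, -0.33 to 0.28 for Slc16a1, -0.12 to 0.020 for Slc16a3 and -0.12 to 0.17 for Slc2a3. Without WT F, Dld was -0.098 and Idh3a -0.042. Without Keap1_KO D they were -0.041 and -0.060. With the neutrophil covariate Dld was -0.17, Idh3a -0.24, Pdha1 -0.072 and Pfkp -0.064. With the first principal component Dld was -0.38, Dlst -0.036, Idh3a -0.43, Ogdh -0.072, Pdha1 -0.44, Pdhb -0.020, Pfkp -0.074, Slc2a1 -0.35, Suclg1 -0.25 and Slc2a3 0.016. Under quantile normalization over the genes tested Dld was -0.089, Idh3a -0.14 and Pfkp -0.063, and under centring over them Idh3a was -0.069. Repeated quantile normalization gave 0.035 for Slc16a1, 0.071 for Slc16a3 and 0.089 for Slc2a3, and centring gave 0.046, 0.068 and 0.11. Slc2a3 was 0.030 with array weights, 0.17 without WT D and 0.14 without Keap1_KO C, Slc16a1 was 0.28 without WT D, and Slc16a3 was 0.020 without WT A. The cause was not tested. No paired analysis was possible because the genotypes share only 1 replicate letter, D.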

Other observations

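The malate-aspartate shuttle, which carries the electrons of cytosolic NADH into mitochondria, joins the 2 malate dehydrogenases to aspartate aminotransferases and carriers, and was singled out after its values were seen. Of its 7 genes 6 had higher means in Keap1_KO, against 56.5% of all genes, with a median difference of 0.92. All Keap1_KO arrays lay above WT for 3, against 9.11% of all genes: Got2, Slc25a11 and Slc25a12. As the group was picked for its values, nothing is read from these counts. Got2, the mitochondrial aminotransferase, read 7.37, 7.60 and 7.03 in WT and 7.62, 9.02 and 8.99 in Keap1_KO (difference 1.21, SE 0.41). Slc25a11, the oxoglutarate-malate carrier, read 8.85, 8.90 and 8.46 against 9.11, 10.36 and 10.35 (difference 1.20, SE 0.37). In both, Keap1_KO B lay just above WT and the other 2 arrays far above. Slc25a13, the other aspartate-glutamate carrier, differed by -0.099. None passed the adjusted threshold in limma.

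The 4 succinate dehydrogenase genes, Sdha, Sdhb, Sdhc and Sdhd, link the TCA cycle to the respiratory chain. They too were singled out after their values were seen, so nothing is read from their count. All 4 had higher means in Keap1_KO on the deposited scale, against 56.5% of all genes, with differences from 0.56 to 1.11 and a median of 0.82. None of the 4 passed the adjusted threshold in limma. Their arrays overlapped, with a mean deviation of -0.28 on Keap1_KO B against 0.78 and 0.74 on C and D.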
